A study of Mus musculus with 24 samples.

Results

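Ly6Chigh monocytes were compared with Mgl1high macrophages, both sorted from tibialis anterior muscle on day 4 after an intramuscular injection of notexin, a snake venom phospholipase that destroys muscle fibres and leaves the tissue to regenerate. The 8 arrays compared are 4 of each subset out of 24 arrays in the series, chosen by their labels, 1 array for each of the strains WT (C57Bl/6), Cx3cr1-/-, Ccl2-/- and Cx3cr1-/-Ccl2-/-. The Ly6Chigh monocytes were CD11b+ Ly6G- NK1.1- cells gated as Ly6Chigh with a low signal for the Adgre1 product, a macrophage surface antigen. The Mgl1high macrophages were CD11b+ Ly6G- NK1.1- cells gated as Ly6Clow, Mgl1high and high for the Adgre1 antigen. The study describes all 4 sorted subsets as positive for Mgl1, so the monocytes were not gated as lacking it. Cx3cr1-/- mice lack the fractalkine receptor and Ccl2-/- mice the chemokine CCL2, so that 3 of the 4 strains in either subset carried a chemokine defect in every cell. Each array held amplified RNA of 1 pool of 3 mice, all sorted in 1 experiment, and female and male mice were used in the study without the sex of a pool being given. A subset thus has 4 replicates that are strains. The p-values of genes rest on a spread pooled over all 4 subsets sorted on day 4, those not compared here included. Within each subset this is the spread between 4 pools that also differ in genotype. Values of 4 arrays are given below in the order WT, Cx3cr1-/-, Ccl2-/- and Cx3cr1-/-Ccl2-/-.

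Ly6Chigh monocytes leave the blood through CCR2 and enter injured muscle as inflammatory cells, where they take up debris and give rise to macrophages. Macrophages that carry Mgl1, a galactose-type lectin encoded by Clec10a, also reside in healthy muscle, and genes such as Lyve1, Folr2, Cd163 and Mrc1 are commonly used to mark resident macrophages of connective tissue. The comparison asks which transcripts set the incoming cell apart from the macrophage with the most resident-like surface phenotype in the same muscle.

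The number of probes detected (detection p under 0.05, out of 45281) was 15437, 14135, 16392 and 16445 in Ly6Chigh monocytes, against 17846, 9369, 14219 and 13638 in Mgl1high macrophages. The subsets overlapped, and the lowest value belonged to the Mgl1high array labelled Cx3cr1-/-. The mean difference of 1834 probes had an exact two-sided permutation p of 0.4. It was 857 without the Cx3cr1-/- strain, 3249 without WT, and 3054 at a detection p under 0.01 (exact p = 0.143). On that weak array the lowest detected signal was 6.19 on the log2 scale, against 5.10 to 5.46 on the other 3 Mgl1high arrays and 5.20 to 5.41 on the Ly6Chigh arrays, so that dim genes had less room to be measured there. The Cx3cr1 transcript was 7.56, 4.91, 6.41 and 5.02 in Ly6Chigh monocytes, where both Cx3cr1-deficient arrays were not above background. In Mgl1high macrophages it was 6.58, 6.77, 5.80 and 5.35, so that the array labelled Cx3cr1-/- did not show the loss by this probe. Ccl2 was 8.76, 8.71, 9.86 and 9.33 in Ly6Chigh monocytes and 9.16, 8.69, 9.16 and 9.03 in Mgl1high macrophages, but where its probe lies against the disrupted sequence is not known here, so this checks no label.

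Of the genes behind the gates, Ly6c1 separated the subsets clearly. Ly6c1, which encodes part of the Ly6C antigen, had log2 signals of 9.52, 9.45, 9.16 and 9.50 in Ly6Chigh monocytes and of 6.06, 6.41, 5.13 and 5.70 in Mgl1high macrophages. All Ly6Chigh arrays lay above all Mgl1high arrays (log2 difference 3.59, SE 0.31, adjusted p = 2.46e-06, limma). Ly6c2, its near-identical neighbour, was not analysed here, and the probe may read both.

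The other gate genes did not pass. Clec10a was 11.65, 11.58, 11.39 and 11.59 in Ly6Chigh monocytes and 13.18, 12.68, 13.87 and 13.40 in Mgl1high macrophages. These arrays did not overlap, but the log2 difference of -1.73 (SE 0.47) had an adjusted p of 0.0644 (limma). Clec10a passed in 7 of 24 alternative settings. Its adjusted p was 0.0425 with the strain pool as a replicate block and 0.00944 in a fit of only the 8 arrays compared. Over the 24 settings it ranged from 9.48e-05 to 0.383. Adgre1 was 11.02 ± 0.33 in the monocytes, gated low for its product, and 11.22 ± 0.28 in the macrophages, gated high (SD, n = 4 each), with an adjusted p of 0.836 and a direction that turned with the scaling. Itgam, the CD11b gene, was 7.65 ± 0.28 and 8.12 ± 1.07 (adjusted p = 0.712).

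Slfn4, Folr2 and Gas6 were taken as further markers of the subsets and played no part in the gates. Slfn4, a Schlafen gene induced in inflammatory monocytes, was 8.79, 8.86, 10.69 and 10.19 in Ly6Chigh monocytes and 6.07, 5.23, 6.25 and 4.80 in Mgl1high macrophages. It was 16.5-fold higher in monocytes (log2 difference 4.05, SE 0.53, adjusted p = 0.000319) and was detected on only 2 of the 4 Mgl1high arrays. Folr2, a folate receptor of resident macrophages, was 5.85, 6.42, 5.67 and 6.67 in Ly6Chigh monocytes against 9.68, 10.25, 9.78 and 10.52 in Mgl1high macrophages, a log2 difference of -3.90 (SE 0.34, adjusted p = 2.46e-06). Gas6, the ligand that bridges apoptotic cells to the receptors Axl and Mertk, was 5.42, 5.43, 4.93 and 4.98 against 9.83, 10.07, 10.38 and 11.18, with 2 of the 4 monocyte arrays above background (-5.18, SE 0.30, adjusted p = 2.04e-08). For these markers no Ly6Chigh array reached the range of the Mgl1high arrays or the reverse, as for 14.8% of all genes tested. The pooled RNA does not tell fewer expressing cells from less RNA per cell.

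In all, 225 of 8250 genes tested were called at an adjusted p under 0.05, which is 2.73%. Of these, 119 genes (1.44%) were higher and 106 genes (1.28%) lower in Ly6Chigh monocytes, and 223 of the 225 had 1 sign in all 4 strains. The median difference over all genes tested was 0.11. With the strain pool as a replicate block, 222 genes were higher and 147 lower. By probe the counts were 237 higher and 156 lower of 15320 (2.57%), and with the strain pool as a replicate block they were 451 and 220. Scaling the arrays to 1 median without a quantile step gave 170 higher and 70 lower, moving the share of higher calls to 70.8% from 60.3% and the median difference of all probes to 0.42 from 0.14. Without the Mgl1high array labelled Cx3cr1-/- there were 79 genes higher and 99 lower, and 147 of these 178 were among the 225.

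**Figure D1:**
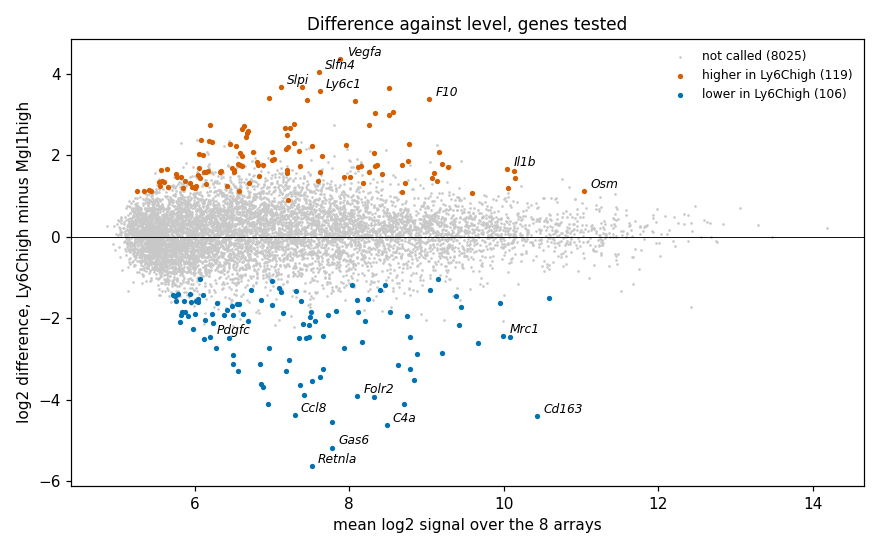
Each point is a gene tested, with the mean log2 signal of its probe over the 8 arrays on the x axis and the log2 difference, Ly6Chigh minus Mgl1high, on the y axis. Orange points are the 119 genes higher and blue points the 106 genes lower in Ly6Chigh monocytes at an adjusted p under 0.05. The fitted differences reach 4.36 for Vegfa above 0 and -5.62 for Retnla below it, the second against monocyte arrays that were not above background.

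Of all 8250 genes tested, 6558 were detected on all 4 Ly6Chigh arrays and 4043 on all 4 Mgl1high arrays, and the counts of called genes stand against this base. All 119 genes higher in monocytes were detected on all 4 Ly6Chigh arrays, but only 35 of them on all 4 Mgl1high arrays, and 8 on none. Of the 106 genes lower in monocytes, 100 were detected on all 4 Mgl1high arrays and 57 on all 4 Ly6Chigh arrays. In fits that left out 1 of the 8 arrays at a time, 44 genes higher and 58 genes lower were called every time, and in fits that left out 1 strain at a time 13 and 32 were. Ly6c1, Slfn4, Slpi, Itgb7, Thbs1, Cytip, Ptgs2, Cd177 and Smim3 were among those 13, and Retnla, Gas6, C4a, C4b, Mgl2, Ccl8, Cd209d, Folr2, Lyve1, Mrc1, Pf4, Fcgrt and Pdgfc among those 32.

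The largest fitted differences toward monocytes were those of Vegfa, Slfn4, Slpi, Clec4e, Klra2, Ly6c1, Itgb7, F10, Ms4a4c, Thbs1, Cytip, Chil3, Slc2a1, Cd300lf and Smim3, at log2 differences of 4.36 for Vegfa down to 2.75 for Smim3. Slpi, a secreted inhibitor of neutrophil serine proteases, was 9.30, 8.27, 9.57 and 8.68 in Ly6Chigh monocytes and 5.47, 5.62, 5.28 and 4.71 in Mgl1high macrophages, where 1 array was above background. Its difference of 3.68 (SE 0.41, adjusted p = 4.35e-05) had the second smallest adjusted p among these 15 after Ly6c1. Clec4e, the Mincle receptor for mycobacterial cord factor and for a protein of dead cells, was 8.54, 8.55, 10.21 and 9.61 against 5.92, 4.66, 6.83 and 4.84, with 2 macrophage arrays above background (3.67, SE 0.64, adjusted p = 0.00386). As with Slfn4, the Ccl2-/- and Cx3cr1-/-Ccl2-/- monocytes had the higher Clec4e values, and the difference held in all 4 strains. Klra2, a Ly49-family receptor, differed by 3.65 (adjusted p = 0.00814), Cytip, a regulator of leukocyte adhesion, by 3.06 (adjusted p = 0.000326) and Cd300lf, an immunoreceptor, by 2.76 (adjusted p = 0.00609).

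**Figure D2:**
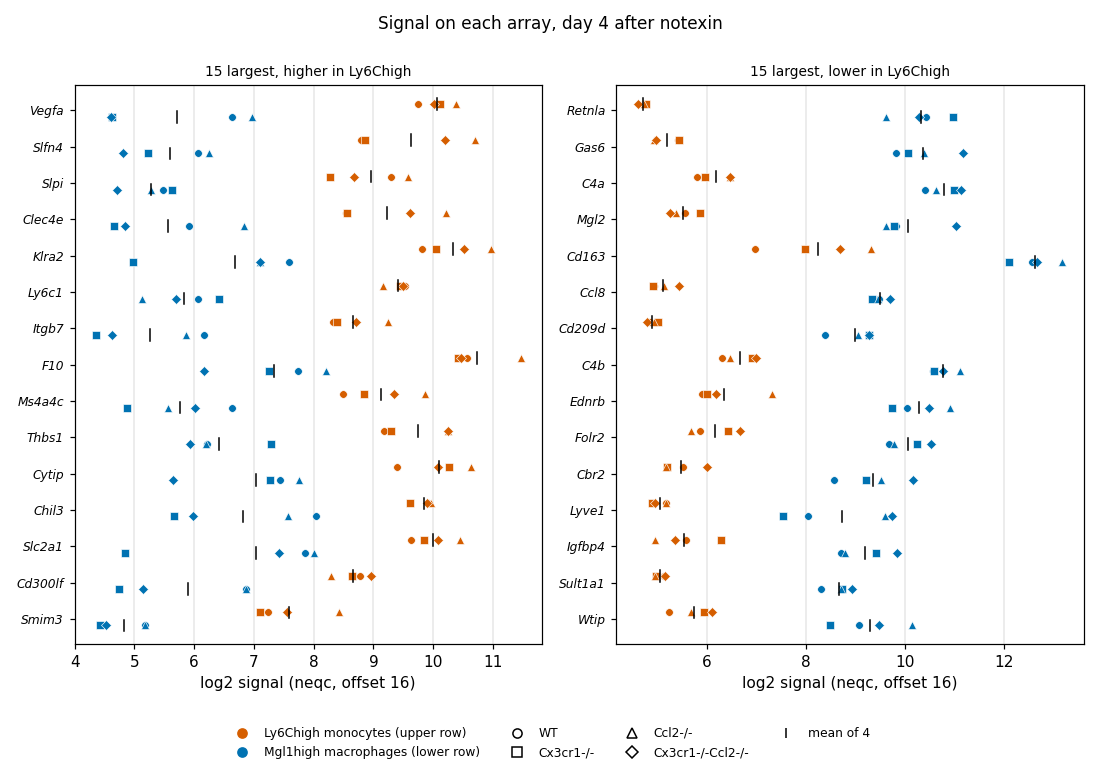
Log2 signal of each array for the 15 genes with the largest fitted difference in either direction, Ly6Chigh monocytes in orange in the upper row of each gene and Mgl1high macrophages in blue in the lower row, with 1 marker shape for each strain and a black bar for the mean of 4. The rows do not overlap for any of the 30 genes, and the arrays did not for 14.8% of all genes tested. The 30 genes were chosen for large differences on these same arrays, which favours rows that do not overlap. For genes such as Vegfa and Slc2a1 the Mgl1high values are spread more widely than the Ly6Chigh values.

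The counts of this list and of those below stand against 1.44% of all genes tested that were higher and 1.28% that were lower. The lists were drawn up with earlier results of these data known, so their counts are no independent support. A list of 21 classical monocyte genes had 17 tested members, of which 10 were higher in Ly6Chigh monocytes and 1 lower, with a median difference of 1.73. Beside Ly6c1, Slfn4, Clec4e and Thbs1 the higher genes were Ccr2, Plac8, Chil3, Hp, Ms4a4c and Cd177. Cd177 (2.45, adjusted p = 0.00213, limma) is best known as a neutrophil surface antigen and does not by itself mark monocytes. The part of neutrophil RNA in its signal was not tested. Ccr2, the receptor through which monocytes follow CCL2, was 8.08, 8.05, 8.15 and 7.85 in Ly6Chigh monocytes and 6.81, 5.41, 5.48 and 6.14 in Mgl1high macrophages (2.07, SE 0.50, adjusted p = 0.0321). The monocyte values lay close together and the arrays did not overlap, but the call was kept in only 1 of the 8 fits that left out an array. Chil3, a chitinase-like lectin whose probe may also read its close relative Chil4, was 9.91, 9.62, 9.96 and 9.89 against 8.04, 5.66, 7.57 and 5.99 (3.03, SE 0.50, adjusted p = 0.00247).

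Plac8, a small protein of classical monocytes, was 9.67, 9.998, 10.53 and 10.32 in Ly6Chigh monocytes and 7.43, 9.47, 8.05 and 8.77 in Mgl1high macrophages. The difference of 1.70 just passed (adjusted p = 0.0499) and was called in 1 of the 8 fits that left out an array. The macrophages had a signal above the 5.81 ± 0.40 of the Mgl1low macrophages of the same muscles (Mgl1high minus Mgl1low 2.62, SE 0.44, adjusted p = 0.0112). F13a1, the A subunit of coagulation factor XIII, was the member that went the other way, at 8.91, 9.21, 8.9999 and 9.46 in Ly6Chigh monocytes against 10.48, 10.52, 11.03 and 11.05 in Mgl1high macrophages (-1.63, SE 0.34, adjusted p = 0.0153). Vcan, the proteoglycan versican, was not tested because too few arrays detected it. It was 6.93, 6.60, 10.05 and 9.47 on the 4 Ly6Chigh arrays and not above background on any Mgl1high array, which makes the mean of the monocytes at least 6.62-fold higher. The Ccl2-/- and Cx3cr1-/-Ccl2-/- monocytes carry this bound. It does not hold within WT or Cx3cr1-/-, where the lowest detected signals on the Mgl1high arrays were 5.10 and 6.19.

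Of 22 tested genes of hypoxia and glycolysis, 4 were higher in Ly6Chigh monocytes, none was lower and 18 were not called, and the median difference was 0.80 against 0.11 over all genes. Vegfa, the vascular endothelial growth factor, was 9.75, 10.12, 10.38 and 10.02 in Ly6Chigh monocytes and 6.63, 4.63, 6.97 and 4.61 in Mgl1high macrophages, detected on 2 of these 4 arrays (4.36, SE 0.76, adjusted p = 0.00368). The monocyte arrays lay close together, while the macrophage arrays fell into a detected and an undetected pair. Slc2a1, the glucose transporter GLUT1, was 9.63, 9.85, 10.45 and 10.09 against 7.86, 4.83, 8.01 and 7.41, the low value being that of the weak array (2.97, SE 0.60, adjusted p = 0.0109). Slc16a3, a lactate exporter, was 6.79, 7.02, 7.79 and 7.50 in monocytes and not above background on any Mgl1high array, at least 3.34-fold higher (adjusted p = 0.000941), but the other tested probe of Slc16a3 differed by only -0.27. Hif1a, the oxygen-regulated transcription factor itself, differed by 1.76 (adjusted p = 0.0439). The glycolytic enzymes Ldha, at 10.06 ± 0.30 and 9.63 ± 0.46, and Pgk1, at 9.89 ± 0.65 and 8.91 ± 0.26 (monocytes and macrophages, SD, n = 4 each), did not pass, with adjusted p of 0.608 and 0.251. Without the weak array, 3 members of the list were called. Slc2a1 lost the call without the Ccl2-/- monocyte array, Hif1a was called in 1 of the 8 fits that left out an array, and Vegfa and Slc16a3 lost the call only without the Cx3cr1-/-Ccl2-/- strain.

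The promoters of these genes are shown because hypoxia-inducible factors bind the core ACGTG. Windows of 300 bases, from 250 before to 50 after the start site, come from RefSeq on GRCm38.p6, printed along the gene's own strand with each match to ACGTG or its reverse complement in capitals. Overlapping matches on opposite strands form CACGTG in Hif1a.
Slc2a1 (chr4:119108495-119108794, plus strand): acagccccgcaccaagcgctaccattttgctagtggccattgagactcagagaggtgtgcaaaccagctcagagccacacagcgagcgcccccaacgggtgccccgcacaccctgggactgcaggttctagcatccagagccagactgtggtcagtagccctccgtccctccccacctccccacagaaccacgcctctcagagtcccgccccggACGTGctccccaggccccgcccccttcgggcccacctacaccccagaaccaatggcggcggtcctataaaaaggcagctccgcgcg
Slc16a3 (chr11:120948817-120949116, plus strand): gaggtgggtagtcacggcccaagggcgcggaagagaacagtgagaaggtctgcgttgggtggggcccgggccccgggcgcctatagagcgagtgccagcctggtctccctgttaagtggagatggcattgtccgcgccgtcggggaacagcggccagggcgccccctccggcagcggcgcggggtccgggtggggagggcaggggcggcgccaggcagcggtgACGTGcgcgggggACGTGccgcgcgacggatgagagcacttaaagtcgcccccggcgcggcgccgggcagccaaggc
Hif1a (chr12:73907617-73907916, plus strand): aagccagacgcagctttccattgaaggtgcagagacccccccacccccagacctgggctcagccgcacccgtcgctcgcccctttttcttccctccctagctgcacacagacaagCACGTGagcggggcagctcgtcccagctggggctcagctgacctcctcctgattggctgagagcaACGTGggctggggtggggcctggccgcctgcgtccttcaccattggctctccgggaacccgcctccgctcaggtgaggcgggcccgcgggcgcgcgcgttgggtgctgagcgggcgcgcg
Counted from the start site, the match in Slc2a1 begins at position -36, those in Slc16a3 at -27 and -14, and those in Hif1a at -135, -134 and -70. Vegfa has no match in the window of the first of its 2 listed start sites and 1 match in that of the second. Such a match was found in 19.6% of all 32851 windows and in 26.7% of the first windows of tested genes. It was found in 12 of 21 tested list members that have a window (57.1%) and in 22 of 93 genes called higher in monocytes (23.7%). A match of 5 letters is a description of the sequence and shows no binding.

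Inflammatory mediators were mixed. Of 20 tested members 4 were higher in Ly6Chigh monocytes and none lower, and the median difference of 0.06 was near that of all genes. Il1b, interleukin-1 beta, was 10.52, 11.07, 10.89 and 11.04 in Ly6Chigh monocytes and 9.19, 9.73, 8.78 and 9.16 in Mgl1high macrophages (1.67, SE 0.31, adjusted p = 0.00609). Both subsets were far above background. Il1r2, the decoy receptor that captures interleukin-1, was 6.66, 8.55, 7.73 and 7.46 in monocytes and not above background on any Mgl1high array, at least 4.17-fold higher (adjusted p = 0.00454). Neutrophils also use Il1r2, and the summed signal of the neutrophil list that holds it was 589 to 818 on the monocyte arrays and 490 to 688 on the macrophage arrays. The part of neutrophil RNA was not tested. Cd14, the lipopolysaccharide co-receptor, differed by 1.44 (adjusted p = 0.0321) and was called in 3 of the 8 fits that left out an array. Tnf was 6.35, 7.07, 7.53 and 6.79 in monocytes against 6.93, 9.83, 7.37 and 8.06 in macrophages and did not pass (adjusted p = 0.383).

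Among single enzymes of eicosanoid synthesis, Ptgs2, the inducible cyclooxygenase that makes prostaglandin precursors, was 9.02, 9.19, 9.75 and 9.40 in Ly6Chigh monocytes and 7.04, 7.34, 7.43 and 7.38 in Mgl1high macrophages (2.04, SE 0.25, adjusted p = 0.000183). Alox5, the lipoxygenase that starts leukotriene synthesis, was 5.22, 4.72, 5.01 and 5.23 in monocytes against 7.18, 7.40, 8.17 and 9.07 in macrophages (-2.91, SE 0.51, adjusted p = 0.00386), and 1 of the 4 monocyte arrays was above background. Ltc4s, the leukotriene C4 synthase, was not above background on any monocyte array and was 5.76, 6.77, 7.44 and 5.90 in macrophages, at least 2.29-fold lower in monocytes (adjusted p = 0.03). Alox5ap, which presents the substrate to this lipoxygenase, was not called by either of its probes, at -0.42 and 0.08. Alox5 and Alox5ap were chosen after their values were seen. The call of Ltc4s was kept in 2 of the 8 fits that left out an array, that of Ptgs2 and Alox5 in all 8.

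Of 29 tested interferon response genes 2 were higher in monocytes and none lower, with a median of 0.66, and with the strain pool as a replicate block 4 were higher. Over all genes tested 1.44% were higher without the block. Irf7, the transcription factor that amplifies type I interferon, was 7.07, 7.07, 7.72 and 7.45 in Ly6Chigh monocytes and 5.91, 4.84, 6.11 and 5.73 in Mgl1high macrophages (1.68, SE 0.35, adjusted p = 0.0149). Isg20, an antiviral exonuclease, was 6.82, 6.95, 7.91 and 7.74 against 5.39, 4.79, 5.03 and 4.83, with 1 of the 4 macrophage arrays above background (2.35, SE 0.40, adjusted p = 0.00313). Irf7 lost the call without either of the Ccl2-/- and Cx3cr1-/-Ccl2-/- monocyte arrays. In both genes the Ccl2-/- and Cx3cr1-/-Ccl2-/- monocytes were the higher pair. The summed signal of the list was 15020 to 23540 on the monocyte arrays and 13920 to 14910 on the macrophage arrays.

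Coagulation and fibrinolysis genes were called on either side, 4 higher and 3 lower of 11 tested, and 4 higher and none lower with scaling to 1 median. F10, coagulation factor X, was 10.56, 10.42, 11.46 and 10.46 in Ly6Chigh monocytes and 7.74, 7.25, 8.21 and 6.17 in Mgl1high macrophages (3.38, SE 0.65, adjusted p = 0.00766). Thbs1, the matrix glycoprotein thrombospondin, was 9.17, 9.29, 10.24 and 10.25 against 6.22, 7.29, 6.20 and 5.93 (3.33, SE 0.52, adjusted p = 0.00149). Thbd, the thrombin receptor thrombomodulin, differed by 2.66 (adjusted p = 0.00679, with 2 macrophage arrays above background) and Plaur, the urokinase receptor, by 1.33 (adjusted p = 0.0166). On the macrophage side stood F13a1, the anticoagulant cofactor gene Pros1 and the tissue factor pathway inhibitor gene Tfpi (-1.41, adjusted p = 0.0491, with 1 of 4 monocyte arrays above background). With scaling to 1 median these 3 lost the call, at adjusted p of 0.206 for F13a1, 0.0712 for Pros1 and 0.148 for Tfpi. Of the 8 fits that left out an array, those that called Plaur, F13a1 and Tfpi were 5, 6 and 1.

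Adhesion and matrix genes added 2 integrins and 2 metalloproteinases on the monocyte side. Itgb7, the integrin beta 7 chain, was 8.32, 8.39, 9.24 and 8.70 in Ly6Chigh monocytes and 6.17, 4.35, 5.87 and 4.62 in Mgl1high macrophages, where 2 arrays were above background (3.41, SE 0.46, adjusted p = 0.000381). Itga5, the fibronectin receptor chain, differed by 1.46 (adjusted p = 0.0285), with 1 macrophage array above background and its other probe at 0.55 and not called. Mmp14, a membrane-bound collagenase, differed by 1.74 (adjusted p = 0.0404) and Mmp19 by 1.59 (adjusted p = 0.0226), with overlapping arrays and 1 macrophage array above background for Mmp19. Timp2, an inhibitor of metalloproteinases, was lower in monocytes by -2.86 (adjusted p = 0.0195), Serpinb6a, an intracellular protease inhibitor, by -3.52 (adjusted p = 0.0017, with its other probe at -0.71 and not called) and the tetraspanin gene Cd81 by -3.29 (adjusted p = 0.000432). Of 17 tested matrix proteases and inhibitors 5 were higher and 2 lower, and of 19 adhesion genes 2 and 1, or 4 and 1 with the strain pool as a replicate block. With 1 array left out, Itga5 in 2, Mmp14 in 2, Mmp19 in 3 and Timp2 in 4 of 8 fits kept the call, and Itgb7, Serpinb6a and Cd81 in all 8.

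**Figure D3:**
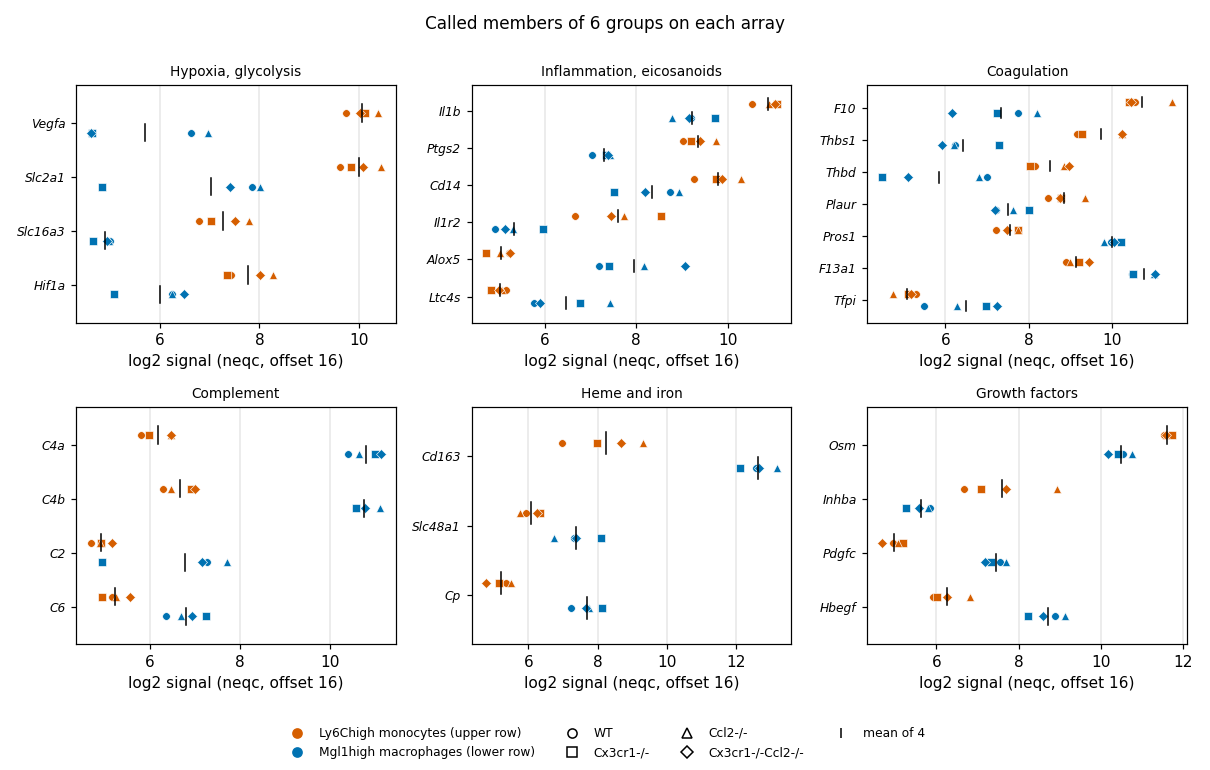
Log2 signal of each array for the called members of 6 groups, Ly6Chigh monocytes in orange in the upper row and Mgl1high macrophages in blue in the lower row, 1 marker shape for each strain and a black bar for the mean. Hypoxia genes stand to the right in monocytes, complement and heme and iron genes to the right in macrophages, and the other 3 panels hold called genes on either side.

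The resident macrophage list went toward the Mgl1high cells. Of 23 tested members 16 were lower in Ly6Chigh monocytes and none higher, the median difference was -2.60, and the arrays of the 2 subsets did not overlap for any of the 23, against 14.8% of all genes tested. The members were chosen with earlier results of these data known, which favours such counts, so they are no independent support. The summed signal of the list was 7211 to 9984 on the monocyte arrays and 33380 to 52830 on the macrophage arrays. Cd163, the scavenger receptor for haemoglobin, was 6.97, 7.98, 9.32 and 8.68 in Ly6Chigh monocytes and 12.57, 12.11, 13.18 and 12.66 in Mgl1high macrophages (-4.39, SE 0.78, adjusted p = 0.00436). The WT monocytes were the lowest. Lyve1, a hyaluronan receptor, was not above background on any monocyte array and was 8.03, 7.54, 9.59 and 9.74 in macrophages, at least 10.99-fold lower in monocytes (adjusted p = 0.000967). Mrc1, the mannose receptor CD206, was 7.75, 8.58, 9.11 and 9.64 against 10.99, 11.16, 11.11 and 11.62 (-2.45, SE 0.34, adjusted p = 0.000527). Igf1, the insulin-like growth factor, was 10.16, 9.98, 7.69 and 8.004 in monocytes against 11.08, 10.85, 10.56 and 11.61 and did not pass (adjusted p = 0.0682, and 0.0493 with the strain pool as a replicate block).

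RNA of other cells was looked for with marker lists. Of 10 muscle fibre genes with a probe 4 were tested, and 1 of these, the troponin gene Tnnt3, was called, at 4.58, 4.78, 5.04 and 4.64 in Ly6Chigh monocytes and 6.29, 8.15, 5.54 and 7.44 in Mgl1high macrophages, not above background on any monocyte array (at least 3.01-fold lower in monocytes, adjusted p = 0.0194, called in 2 of the 8 fits that left out an array). Without the weak array none of these 4 was called. The summed signal of the 10 was 380 to 465 on the monocyte arrays and 648 to 1000 on the macrophage arrays. Ckm, the muscle creatine kinase, and Myh1 were not above background on any of the 8 arrays. The striated muscle genes Cox6a2 (-1.59) and Tcap (-1.66), outside this list, were also called lower in monocytes. Both were chosen after their values were seen. Cox6a2 was called in all 8 fits that left out an array, the weak array included, and Tcap in 2. The part of fibre RNA in the macrophage-side results was not tested. Neutrophil granule genes such as S100a8, Ngp, Camp and Ltf were not above background on any of the 8 arrays, nor were the T cell genes Cd3d, Cd3e and Cd3g. Il1r2 of the neutrophil list and Cd177 were called higher in monocytes. The T and NK list summed to 308 to 334 on monocyte and 319 to 717 on macrophage arrays. The dendritic list gave 848 to 932 and 936 to 1371, the muscle precursor list 284.5 to 344.4 and 365.2 to 451.5. None of their tested genes was called. The lists of B, eosinophil, endothelial and erythroid cells had overlapping sums. The part of RNA of these cells was not tested. Of 10 fibroblast genes tested none was called in either direction, and the summed signal of that list was 864 to 2530 on the monocyte arrays and 1435 to 4348 on the macrophage arrays.

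Genes linked to type 2 activation did not move as 1 group. Of 16 tested members 5 were lower and 2 higher in Ly6Chigh monocytes, with a median of -0.13. Retnla, a secreted protein induced by interleukin-4, was 4.74, 4.77, 4.72 and 4.60 in Ly6Chigh monocytes, none above background, and 10.42, 10.98, 9.62 and 10.29 in Mgl1high macrophages. The monocytes were thus at least 33.3-fold lower (adjusted p = 0.000608). The fitted log2 difference of -5.62 (SE 0.80) rests on background values in monocytes. Mgl2, the second galactose-type lectin, was 5.55, 5.85, 5.37 and 5.25 against 9.81, 9.78, 9.61 and 11.04 (-4.55, SE 0.39, adjusted p = 2.53e-06). The 2 members that were higher in monocytes were Chil3 and Tgm2, a transglutaminase, the second at 9.71, 10.25, 10.40 and 10.01 against 8.54, 8.25, 8.97 and 7.51 (1.77, SE 0.41, adjusted p = 0.0259, called in 3 of the 8 fits that left out an array). Arg1, arginase, had 6.18 ± 0.81 in monocytes and 5.65 ± 1.20 in macrophages and did not pass (adjusted p = 0.698).

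The promoter of Retnla is shown because the gene was far above background on every Mgl1high array and on no Ly6Chigh array. It holds 1 match, in capitals, to TTC and GAA with 4 bases of any kind between them, the spacing bound by STAT6 downstream of interleukin-4. This motif reads the same on both strands.
Retnla (chr16:48842359-48842658, plus strand, GRCm38.p6, RefSeq): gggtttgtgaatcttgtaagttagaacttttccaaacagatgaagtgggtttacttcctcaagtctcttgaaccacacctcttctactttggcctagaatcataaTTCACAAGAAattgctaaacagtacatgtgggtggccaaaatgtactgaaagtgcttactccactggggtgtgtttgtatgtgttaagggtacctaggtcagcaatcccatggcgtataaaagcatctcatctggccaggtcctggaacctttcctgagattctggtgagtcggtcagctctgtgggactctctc
The match begins at position -145 from the start site. A match was found in 6.95% of all windows, and in 1 of 10 tested members of the type 2 list with a window. The windows of Mrc1, Mgl2, Ccl8 and Chil3 held none, which says only that these letters are absent there.

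Both ligands of the TAM receptors were higher in Mgl1high macrophages. Beside Gas6, Pros1, which encodes protein S, was 7.21, 7.76, 7.75 and 7.49 in Ly6Chigh monocytes and 9.97, 10.21, 9.83 and 10.07 in Mgl1high macrophages (-2.47, SE 0.40, adjusted p = 0.00224). The arrays within a subset lay close together and those of the 2 subsets did not overlap. The call of Pros1 was lost with scaling to 1 median (adjusted p = 0.0712, limma) and without the Cx3cr1-/-Ccl2-/- strain (adjusted p = 0.1001, limma). The receptors that these ligands bind did not pass. Mertk was 8.76, 8.50, 6.69 and 7.79 in monocytes against 9.09, 9.24, 7.61 and 7.86 in macrophages (adjusted p = 0.637), and Axl was 9.67, 9.64, 8.34 and 8.57 against 8.80, 7.54, 6.66 and 5.57 (adjusted p = 0.126). In all, 1 of 19 tested genes of apoptotic cell uptake was higher, Tgm2, and 2 were lower, against 3 and 3 with the strain pool as a replicate block.

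Complement genes were lower in monocytes where they passed, 4 of 17 tested and none higher, with a median of -0.68. Of all genes tested 1.28% were lower and 1.44% higher. C4a was 5.80, 5.97, 6.46 and 6.47 in Ly6Chigh monocytes and 10.41, 11.0002, 10.64 and 11.14 in Mgl1high macrophages (-4.62, SE 0.28, adjusted p = 3.95e-08). C4b, which encodes complement C4, was 6.30, 6.91, 6.46 and 6.99 against 10.57, 10.58, 11.12 and 10.77 (-4.10, SE 0.30, adjusted p = 5.16e-07). The 2 genes are near-identical copies, so their probes may read the same RNA and count as 1 observation. C2, the partner of C4 in the classical pathway convertase, was not above background on any monocyte array and was 7.28, 4.94, 7.72 and 7.15 in macrophages, undetected on the weak array, where it overlapped the monocytes (at least 2.83-fold lower in monocytes, adjusted p = 0.0268). C6, a component of the membrane attack complex, differed by -1.58 (adjusted p = 0.0413, with its other probe at -0.83 and not called), and C2 and C6 were each called in only 1 of the 8 fits that left out an array. The C1q genes that start this pathway did not pass. C1qa was 9.43, 9.30, 6.12 and 7.93 in monocytes against 10.66, 10.03, 9.61 and 10.70 (adjusted p = 0.107), and C1qb differed by -1.003 (adjusted p = 0.375).

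The lectin list held 1 member higher in monocytes, Clec4e, and 3 lower, Mgl2, Mrc1 and Cd209d, of 13 tested. Cd209d, a member of the DC-SIGN family, was not above background on any Ly6Chigh array and was 8.40, 9.27, 9.06 and 9.27 in Mgl1high macrophages, at least 13.3-fold lower in monocytes (adjusted p = 6.63e-06). Cd209f, a relative left out of the test by the filter on dim probes, was 9.14, 8.90, 10.19 and 10.10 in macrophages and not above background in monocytes, at least 19.9-fold lower. The members of this family are alike in sequence and their probes may read more than 1 of them. Of 9 Fc receptor genes 1 was called, Fcgrt, the neonatal Fc receptor that recycles IgG, at 7.70, 7.52, 6.47 and 6.99 against 10.25, 9.77, 10.87 and 10.77 (-3.25, SE 0.41, adjusted p = 0.000232). A single call in so short a list says little of the family, as 2.73% of all genes tested were called.

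Heme and iron handling had a median of -1.05 over 17 tested genes, of which 3 were lower in monocytes, against 1.28% of all genes tested, and none higher. These were Cd163, Slc48a1, which exports heme from the lysosome, and Cp, the ferroxidase ceruloplasmin. Cp was 5.35, 5.15, 5.50 and 4.78 in Ly6Chigh monocytes and 7.23, 8.14, 7.75 and 7.67 in Mgl1high macrophages, with 2 monocyte arrays above background (-2.50, SE 0.42, adjusted p = 0.00277). Slc48a1 was 5.94, 6.34, 5.74 and 6.26 against 7.31, 8.09, 6.73 and 7.39 (-1.31, SE 0.32, adjusted p = 0.0335, called in 2 of the 8 fits that left out an array). Neither gene's arrays overlapped. Hmox1, the heme oxygenase, was 8.25, 7.93, 8.27 and 7.97 in monocytes against 8.94, 8.80, 8.91 and 9.78 and did not pass (adjusted p = 0.115). The metallothionein genes Mt1, at 8.59 ± 0.07 and 10.32 ± 0.42, and Mt2, at 5.51 ± 0.20 and 7.32 ± 0.72 (monocytes and macrophages, SD, n = 4 each), were lower in monocytes (adjusted p = 0.00523 and 0.0157). Both were chosen after their values were seen.

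Of 16 tested chemokines none was higher in Ly6Chigh monocytes and 3 were lower. Ccl8, which attracts eosinophils and T cells, was 4.94, 4.90, 5.13 and 5.44 in Ly6Chigh monocytes, with 1 array above background, and 9.48, 9.34, 9.45 and 9.69 in Mgl1high macrophages (-4.39, SE 0.25, adjusted p = 2.04e-08). Pf4, platelet factor 4, was 7.90, 7.82, 8.50 and 9.26 against 10.87, 10.79, 11.03 and 11.20 (-2.60, SE 0.35, adjusted p = 0.000359). Ccl24, the eosinophil chemoattractant eotaxin-2, was 5.59, 5.23, 6.19 and 5.50 against 7.48, 7.59, 6.79 and 7.50 (-1.71, SE 0.33, adjusted p = 0.00903). The macrophage values of Ccl8 lay close together, and Ccl24 was lowest in the Ccl2-/- macrophages. Ccl24 lost the call only with median scaling or without the Cx3cr1-/- or the Cx3cr1-/-Ccl2-/- strain. Among 9 tested chemotactic receptors Ccr2 alone was called.

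Growth factors were also divided, with 3 of 15 tested higher and 2 lower in monocytes, against 1.44% and 1.28% of all genes tested. Beside Vegfa, Osm, the cytokine oncostatin M, was 11.53, 11.74, 11.57 and 11.59 in Ly6Chigh monocytes and 10.54, 10.42, 10.77 and 10.18 in Mgl1high macrophages (1.13, SE 0.25, adjusted p = 0.0218). Inhba, the activin A subunit, was 6.68, 7.08, 8.92 and 7.69 against 5.86, 5.25, 5.79 and 5.58 (1.97, SE 0.48, adjusted p = 0.0359), and Osm and Inhba lost the call in 4 and 6 of the 8 fits that left out an array. Pdgfc, a platelet-derived growth factor, was not above background in monocytes and was 7.55, 7.33, 7.70 and 7.17 in macrophages, at least 4.50-fold lower in monocytes (adjusted p = 5.99e-06). Hbegf, a ligand of the EGF receptor, was 5.93, 6.01, 6.81 and 6.27 against 8.89, 8.22, 9.13 and 8.59 (-2.45, SE 0.40, adjusted p = 0.00236).

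Cell cycle genes had a median of -0.76 over 26 tested, with 2 lower in monocytes and none higher, or 4 lower with the strain pool as a replicate block. Without the block 1.28% of all genes tested were lower. Stmn1, a microtubule regulator of dividing cells, was 6.01, 6.61, 6.81 and 6.36 in Ly6Chigh monocytes and 8.25, 8.33, 9.10 and 9.87 in Mgl1high macrophages (-2.44, SE 0.43, adjusted p = 0.00406). Kif22, a mitotic kinesin, was not above background on any monocyte array and was 5.64, 6.17, 7.71 and 7.63 in macrophages, detected on 3 of the 4 (at least 2.86-fold lower in monocytes, adjusted p = 0.0242, called in 2 of the 8 fits that left out an array). The Ccl2-/- and Cx3cr1-/-Ccl2-/- macrophages were the higher pair for both. The summed signal of the list was 3351 to 3982 on the monocyte arrays and 4116 to 8160 on the macrophage arrays.

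Among the transcription factors of myeloid cells, Cebpb, a factor of inflammatory monocytes, was higher in monocytes by 1.36 (adjusted p = 0.0256) and Nr4a1, an orphan nuclear receptor, by 1.33 (adjusted p = 0.0241), kept in 3 and 2 of the 8 fits that left out an array, which with Hif1a made 3 of 28 tested and none lower. Of 26 lysosome genes 1 was lower in monocytes, Ctsa, the protective protein cathepsin A, at 9.65, 9.96, 7.39 and 8.41 against 11.34, 11.32, 11.23 and 11.34 (-2.45, SE 0.49, adjusted p = 0.0109). Of its 4 tested probes only 1 was called, and another differed by 0.02 and was not lower. The call of Ctsa was lost without the Cx3cr1-/-Ccl2-/- monocyte array and with scaling to 1 median (adjusted p = 0.0607, limma). It was also lost without the Ccl2-/- or the Cx3cr1-/-Ccl2-/- strain. Of 25 genes of lipid and cholesterol handling 1 was lower, the phospholipid transfer protein gene Pltp (-2.58, adjusted p = 0.00236). As 1.28% of all genes tested were lower, 1 call of 26 or of 25 says nothing particular of the lysosome or lipid list. Apoe, which encodes apolipoprotein E, was 12.15, 12.21, 9.49 and 10.65 in monocytes against 12.50, 11.92, 11.45 and 11.32 in macrophages and did not pass (adjusted p = 0.55). None of 14 MHC class II presentation genes and none of 29 respiratory chain genes was called, with medians of -0.05 and 0.18. H2-Ab1, a class II chain, was 11.26 ± 0.46 and 11.70 ± 0.34 (SD, n = 4 each).

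**Figure D4:**
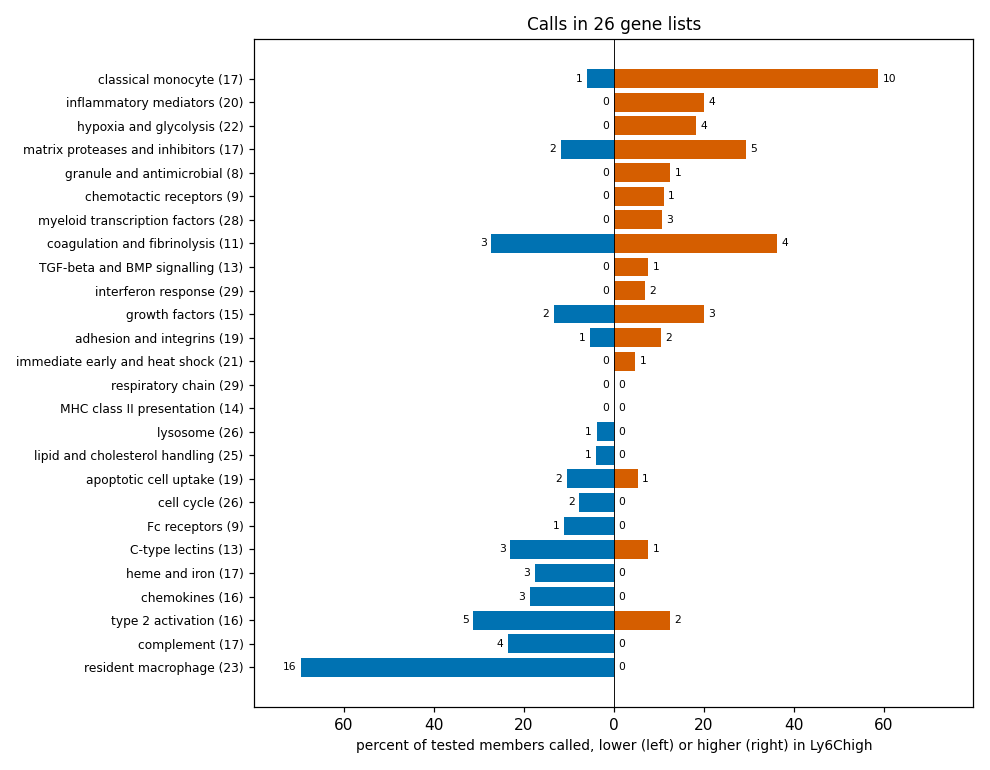
Calls in the 26 lists of functions, as a percentage of the tested members given in brackets, to the right in orange for genes higher and to the left in blue for genes lower in Ly6Chigh monocytes. The numbers beside the bars are the genes called, from 10 higher and 1 lower for classical monocyte genes to none higher and 16 lower for resident macrophage genes. Over all genes tested, 1.44% were higher and 1.28% lower. The lists were drawn up with earlier results of these data known.

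Counts of several lists moved with the processing. With the strain pool as a replicate block, 2 Fc receptor genes were lower, 2 lectins higher and 4 lower, and 1 lipid gene higher and 2 lower. With scaling to 1 median, 2 complement genes, 1 cell cycle gene and no lysosome gene were lower, 3 matrix genes were higher and 1 lower, and 1 growth factor was higher and 1 lower. Without the weak Mgl1high array, none of the myeloid transcription factors was called, 1 adhesion gene was higher and no gene of apoptotic cell uptake was higher.

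Mgl1low macrophages of the same muscles, gated as the Mgl1high cells but Mgl1low, place these differences. Their mean lay between those of Ly6Chigh monocytes and Mgl1high macrophages for 109 of the 119 genes higher and 96 of the 106 genes lower in monocytes, and these counts share the arrays that chose the genes. Mgl1high and Mgl1low macrophages differed in 26 of 8250 genes (0.315%), 21 higher and 5 lower in the Mgl1high. By probe this was 41, against 219 with the strain pool as a replicate block and 722 with scaling to 1 median. Of the 106 genes lower in monocytes 19 were also higher in Mgl1high than in Mgl1low macrophages, while the other 87 did not pass in that contrast. Both comparisons use the Mgl1high arrays.

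The side-by-side values fell into different patterns. C4a was 6.17 ± 0.34 in Ly6Chigh monocytes, 10.80 ± 0.33 in Mgl1high macrophages and 6.88 ± 0.44 in Mgl1low macrophages, so that the Mgl1low value stood near the monocytes (Mgl1high minus Mgl1low 3.91, SE 0.28, adjusted p = 1.34e-06). Cd209d, Mgl2, Lyve1, Ednrb, Cbr2, Sult1a1 and Cp were placed alike, with Mgl1high minus Mgl1low differences of 2.31 for Cp to 3.88 for Cd209d. Gas6 was in the middle at 8.17 ± 0.34 in Mgl1low macrophages (2.20, SE 0.30, adjusted p = 0.00103), and so was Ccl8 at 6.74 ± 0.36 (2.75, adjusted p = 1.20e-05). Pf4, at 10.65 ± 0.57, Serpinb6a, at 10.28 ± 0.30, and Stmn1, at 8.66 ± 0.43 in Mgl1low macrophages, had values close to those of Mgl1high macrophages (adjusted p = 0.629, 0.772 and 0.796).

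On the monocyte side Ly6c1 was 5.90 ± 0.15 in Mgl1low macrophages, Ccr2 6.11 ± 0.35, Il1r2 5.30 ± 0.28 and Cd177 5.43 ± 0.17, all near the Mgl1high values. Vegfa, at 8.85 ± 0.35, Chil3, at 9.18 ± 0.26, Tgm2, at 9.86 ± 0.26, and Mmp14, at 9.43 ± 0.26, stood nearer to the monocytes, but none of these 4 passed between Mgl1high and Mgl1low macrophages (adjusted p = 0.0805, 0.0589, 0.104 and 0.0623). In Mgl1high macrophages of injured muscle the mean was 10.33 for Retnla, 8.73 for Lyve1, 12.63 for Cd163 and 10.36 for Gas6, against 12.40, 10.83, 13.29 and 10.47 in Mgl1high macrophages of untreated muscle. No test between injured and untreated muscle was made here.

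**Figure D5:**
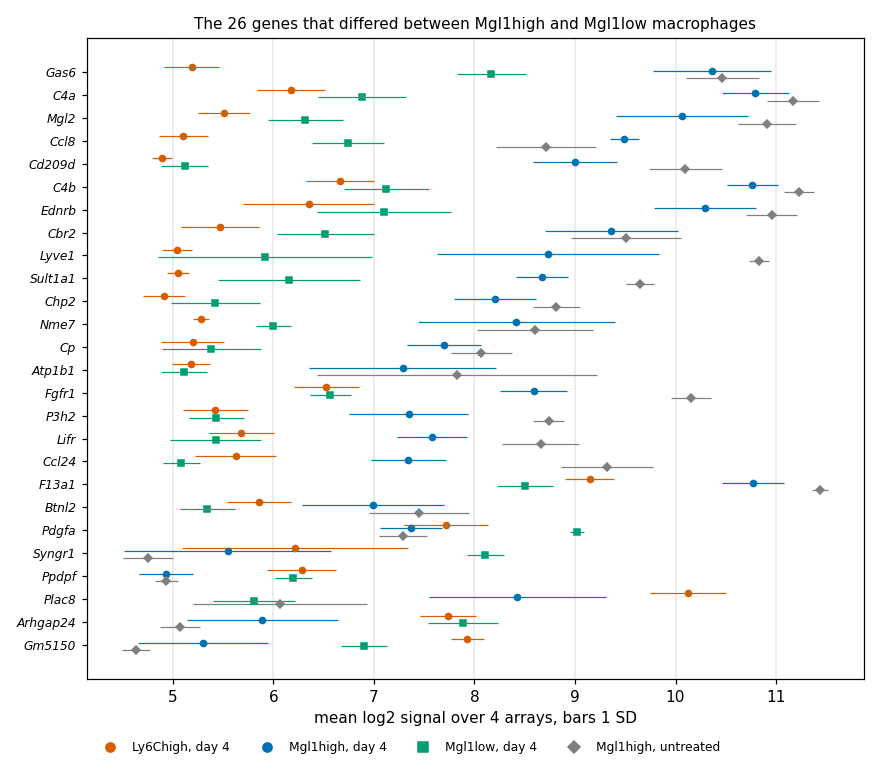
Mean log2 signal over 4 arrays with bars of 1 SD for the 26 genes that differed between Mgl1high and Mgl1low macrophages, with Ly6Chigh monocytes in orange, Mgl1high macrophages in blue, Mgl1low macrophages in green and Mgl1high macrophages of untreated muscle in grey. For the genes in the upper part, from Gas6 to Btnl2, Ly6Chigh and Mgl1low lie to the left of Mgl1high, and Plac8 is lowest in Mgl1low macrophages.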

How the data were processed

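The authors deposited, for each of 24 Illumina arrays, non-normalized probe intensity values with a detection p-value per probe, and processed values that per the labels come from GenomeStudio, with no version stated. The deposited processed values, taken to log2, differed by at most 0.0276 from quantile-normalized intensities and served as an alternative. The platform annotation gave 1 symbol for 34885 of 45281 probes, several for 18 and no symbol for 10378. No column lacked a sample (0).

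From the intensities, background correction (normexp, with the background inferred from the detection p-values), quantile normalization and log2 with an offset of 16 (neqc) were applied over the 24 arrays in R 4.3.3 with limma 3.58.1. Probes detected (p under 0.05) on at least 8 of the 16 day 4 arrays were tested with lmFit and eBayes over those 16 arrays, 4 in each of 4 subsets, with Benjamini-Hochberg adjustment over all probes and no block. A gene was counted by 1 probe. The code was tested on simulated data. The precision is limited by the number of arrays.

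"At least N-fold" compares the mean of the brighter subset with, per array of the other, the higher of the lowest detected signal and the probe's own. Pools share a strain and condition, and deviations of arrays from the same pool correlated at 0.132, 0.119, 0.181 and 0.11, which met the criterion for pairing (each over 0.1). The counts and p-values are from the fit without a block, which leaves this pairing unused. The fit with the pool as a block called more genes. It is given where it moves a count by over 1.5 times or changes a call of a named gene rerun under the alternatives. For other uncalled genes, such as Axl, Mertk, Hmox1 and C1qa, it is not given. Named genes were, per direction, the 15 that differed most with 1 sign in 4 strains, the gate and disrupted genes, and members of 36 lists. Members and lists were chosen with earlier results of these data known. Alternatives covered background, scaling, filter, samples fitted, block, variance prior, array weights and left-out arrays.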

Additional observations from a re-analysis of the deposited data

Results flagged for a closer look

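In 160 groups of 4 arrays the highest or lowest array was set against the other 3, and 6 groups had 1 array far from the rest, a flag that chance gives in about 1 of 20 groups. F10 was 11.461 in the Ccl2-/- Ly6Chigh monocytes, above 10.4231 to 10.5611 on the other 3 arrays. Skil, a repressor of TGF-beta signalling, was 9.88052 in the Cx3cr1-/- Ly6Chigh monocytes, above 9.42468 to 9.4995. Mgl2 was 11.0381 in the Cx3cr1-/-Ccl2-/- Mgl1high macrophages, above 9.61128 to 9.81153. Ccl24 was 6.78506 in the Ccl2-/- Mgl1high macrophages, below 7.47898 to 7.59271. Ctsa was 11.2255 in the Ccl2-/- Mgl1high macrophages, below 11.3204 to 11.3394. Serpinb6a was 10.2451 on the Mgl1high array labelled Cx3cr1-/-, below 10.6798 to 10.7388.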

How the results depend on the processing

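Probe counts depended on the processing more than the direction of the named genes that were rerun. All of the rerun genes but Adgre1, Clec10a and Igf1 were called in the main fit. Choosing genes for their differences on these arrays favours a stable direction. Uncalled genes such as Cx3cr1, Ccl2, Itgam, Tnf and Apoe were not rerun. Of 1894 results of the rerun genes under an alternative, 1566 kept direction and side of the threshold, 311 lost and 15 gained significance, and 2 turned direction, both Adgre1, at 0.30 with scaling to 1 median and, leaving out 1 strain, -0.370 to 0.0242, above 0 only without the Ccl2-/- strain. Against 237 higher and 156 lower in Ly6Chigh monocytes, scaling to 1 median gave 170 and 70, the replicate block 451 and 220, array weights 956 and 641, and leaving out the 3 day 4 arrays of lowest detection 1005 and 696. That last setting with scaling to 1 median, added after seeing the data, gave 775 and 373. The replicate block ended no call of a rerun gene. Leaving out 1 Ly6Chigh array gave 87 to 192 higher and 88 to 122 lower, 1 Mgl1high array 106 to 451 and 96 to 183, and 1 strain 18 to 229 and 54 to 176. The fewest came without the Ccl2-/- (37 and 68) or Cx3cr1-/-Ccl2-/- strain (18 and 54). The 41 probes between Mgl1high and Mgl1low became 103 without background correction, 103 with the authors' processed values, 722 with scaling to 1 median, 120 with no filter, 94 with detection on 4 of 8 arrays, 219 with the replicate block, 91 with a trended prior, 716 with array weights, 695 without the 3 weak arrays, 3889 without them and with scaling to 1 median, and 15 to 33 without 1 strain. Except where arrays were left out, the cause was not tested. The weak Mgl1high array limits what can be said of dim genes.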
